A study of Homo sapiens with 6 samples.

Results

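The death receptor pathway was described here through 10 genes, TNFSF10, FAS, TNFRSF10A, TNFRSF10B, FADD, RIPK1, CASP8, CASP10, CFLAR and BID, out of 58096 genes listed in each library. They were chosen by name for their place in the pathway, with earlier results of these data known. They were found by matching the Ensembl identifiers to GENCODE symbols. The cells were ALL-SIL, a line grown from a human T-cell acute lymphoblastic leukaemia, with a rearranged TLX1 gene and a NUP214-ABL1 fusion. There were 3 libraries from cells given JQ1, an inhibitor that keeps BET bromodomain proteins off acetylated histones, at 1 µM for 24 h, and 3 libraries labelled DMSO, the solvent. The treatment text of the DMSO libraries repeats the JQ1 dose and time, so their exposure is known only from the titles. All 6 libraries came from this single line, and the labels do not say whether replicates were separate cultures. A p-value here thus sets the difference between groups only against the spread among these libraries, and that spread may be technical.

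Death receptors are cell-surface proteins of the TNF receptor family that carry a death domain inside the cell. When FAS meets its ligand, or a TRAIL receptor meets TRAIL, the adaptor FADD is recruited and gathers caspase-8 and caspase-10, which then activate each other. FLIP, the product of CFLAR, resembles these caspases but lacks their catalytic activity, and it limits their activation. Active caspase-8 cuts the executioner caspases and BID, whose cut form carries the signal to mitochondria. In T cells the pathway is known for removing activated cells after an immune response.

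Of the 10 members, 8 were tested, and 3 of these fell under JQ1 while 0 rose (edgeR quasi-likelihood test, Benjamini-Hochberg adjusted p under 0.05). At an unadjusted p under 0.05 by edgeR, 1 member was higher and 4 were lower, against 2991 and 3458 of the 13975 tested genes. DESeq2 called 0 members higher, against 16.2% of all tested genes. The members that fell were FAS, the receptor, CFLAR, the caspase inhibitor, and BID, the link to mitochondria. Over all 13975 tested genes 20.6% were called lower and 15.9% higher, so 3 of 8 has to be read against a background in which calls are common. Same-numbered libraries deviated together across genes. In a fit with the replicate number as a block, 4 members were called lower and 2 higher, against 29.6% and 27.3% of all tested genes. The groups did not overlap, with JQ1 lower, for 5 of the 8 tested members, against 26.0% of all tested genes. The median log2 change of the tested members was -0.35, and that of all tested genes was 0.0036. TNFRSF10A and TNFRSF10B, the TRAIL receptors, were not tested because almost no reads were counted for either.

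The libraries held 15925885 to 25293884 gene counts. Levels are in CPM (counts-per-million, from the normalised library size), and per-library values follow the replicate numbers 1, 2 and 3. Changes are given as log2 (JQ1 over DMSO) with the standard error (SE) after the ± sign. Of the 6 markers of the line, the T-cell genes CD3E, CD3D, CD5, CD7 and PTPRC and the oncogene TLX1, all were detected, with a summed level of 777 to 1032 CPM in JQ1 libraries and 1229 to 1485 CPM in DMSO libraries. Of these, 5 were called lower and TLX1 higher by edgeR, where 20.6% of all tested genes were called lower and 15.9% higher. The falls ran from -2.50 ± 0.35 in CD5 to -0.48 ± 0.17 in CD7 on the log2 scale. CD7 overlapped between groups and lay at the edge of the threshold (edgeR adjusted p = 0.049). Myeloid markers summed to at most 0.141 CPM in JQ1 libraries and 0.0758 CPM in DMSO libraries, with MPO at 0 reads. Erythroid and stromal markers summed to at most 0.0404 CPM in JQ1 libraries and 0.0393 CPM in DMSO libraries, with HBA1 and HBB at 0. B-cell markers summed to between 0.709 and 5.25 CPM in JQ1 libraries and between 4.36 and 12.6 CPM in DMSO libraries, nearly all of it CD79A, with MS4A1 at 0. The CD79A change was -1.40 ± 0.70 on the log2 scale (edgeR adjusted p = 0.17, 0.011 with the replicate number as a block). The part of these marker shifts in the results was not tested. In bulk RNA, fewer cells with a transcript cannot be told apart from less transcript per cell.

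The promoter windows of the members that fell are shown because these genes moved the same way and their starts can be set side by side. Each holds 250 bases before and 50 bases after a RefSeq transcript start on GRCh38.p14, written 5′ to 3′ on the gene's strand, with motif matches in capitals. The windows were picked after the matches were known. For BID and CFLAR the window listed earliest in the RefSeq table is shown, and for FAS that window and the window with an NF-kB match.
FAS, chr10:88990548-88990847, plus strand: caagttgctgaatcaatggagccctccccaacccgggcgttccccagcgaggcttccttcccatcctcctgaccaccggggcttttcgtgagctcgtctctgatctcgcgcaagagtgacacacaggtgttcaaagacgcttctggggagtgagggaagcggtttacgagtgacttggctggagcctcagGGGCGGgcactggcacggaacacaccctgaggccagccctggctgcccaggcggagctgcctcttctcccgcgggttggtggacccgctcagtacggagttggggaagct
FAS, chr10:88991181-88991480, plus strand: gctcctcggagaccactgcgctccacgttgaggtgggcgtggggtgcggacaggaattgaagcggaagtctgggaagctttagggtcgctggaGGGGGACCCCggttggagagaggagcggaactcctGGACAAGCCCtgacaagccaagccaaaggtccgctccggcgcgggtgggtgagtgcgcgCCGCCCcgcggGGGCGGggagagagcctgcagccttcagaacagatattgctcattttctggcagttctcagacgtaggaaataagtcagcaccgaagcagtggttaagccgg
CFLAR, chr2:201118466-201118765, plus strand: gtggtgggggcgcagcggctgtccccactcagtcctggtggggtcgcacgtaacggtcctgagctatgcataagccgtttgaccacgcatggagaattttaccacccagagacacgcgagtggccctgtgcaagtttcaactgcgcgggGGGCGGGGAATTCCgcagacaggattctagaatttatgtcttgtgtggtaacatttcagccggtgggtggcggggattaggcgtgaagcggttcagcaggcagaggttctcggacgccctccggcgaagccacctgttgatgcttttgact
BID, chr22:17774420-17774719, minus strand: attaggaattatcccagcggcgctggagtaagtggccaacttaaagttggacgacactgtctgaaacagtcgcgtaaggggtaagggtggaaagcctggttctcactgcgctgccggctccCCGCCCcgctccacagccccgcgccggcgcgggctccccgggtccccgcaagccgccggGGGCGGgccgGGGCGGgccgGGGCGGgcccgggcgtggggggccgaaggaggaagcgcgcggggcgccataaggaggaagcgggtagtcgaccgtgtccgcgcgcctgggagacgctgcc

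The motifs, searched on both strands, were the TATA box (TATAAA), the GC box (GGGCGG), the E-box (CACGTG), the STAT site (TTCNNNGAA), the core of the interferon-stimulated response element, the CCAAT box (CCAAT), the cAMP response element (TGACGTCA), the NF-kB consensus and the p53 decamer. RefSeq gave 20 windows for 7 members (BID, CASP8, CFLAR, FADD, FAS, RIPK1 and TNFSF10), several per gene and partly overlapping, among 35116 windows of all genes. A site in overlapping windows was counted in each of them, as for the E-box of BID and the interferon element of RIPK1. The GC box was in 14 of the 20 windows and in 45.0% of all windows, and the BID window shown holds 4 matches. The NF-kB consensus was in 2 of the 20, a FAS and a CFLAR window, and in 11.3% of all windows. In the CFLAR window this match overlaps a GC box. The p53 decamer was in a FAS and a CASP8 window and in 6.6% of all. The core of the interferon-stimulated response element was in 4 member windows, of CASP8, RIPK1 and TNFSF10, and in 3.6% of all. The TATA box was in windows of CASP8, RIPK1 and TNFSF10, against 11.5% of all. The E-box was in 2 BID windows, against 7.3% of all, and the STAT site in 1 CASP8 window, against 7.7%. The CCAAT box was in 2 windows, of CASP8 and RIPK1, against 34.6% of all, and the cAMP response element in 0, against 1.8%. A match describes the letters only.

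TNFSF10 encodes TRAIL, the ligand of the TRAIL receptors. Its level was 24.8, 56.6 and 35.9 CPM in the JQ1 libraries, against 64.9, 93.5 and 64.9 CPM in the DMSO libraries. Every JQ1 library was below every DMSO library, and replicate 2 was the highest of each group. The mean was 39.1 ± 16.2 CPM in JQ1 cells and 74.4 ± 16.5 CPM in DMSO cells (SD, n = 3 each), a log2 change of -0.93 ± 0.31. The change did not pass the test (edgeR adjusted p = 0.053). Same-numbered libraries deviated together across genes, and with the replicate number as a block the log2 change was -0.98 ± 0.12 (edgeR adjusted p = 0.00011). Within same-numbered libraries the JQ1 level was 0.382, 0.605 and 0.553 of the DMSO level. Without JQ1 replicate 2 the change was -1.30 and passed (edgeR adjusted p = 0.003). It did not pass without any of the other 5 libraries, where it ran from -1.02 to -0.68 (edgeR adjusted p from 0.076 to 0.15).

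FAS encodes the receptor of FAS ligand. It was scarce, with 34, 31 and 24 reads in the JQ1 libraries, against 77, 136 and 102 reads in the DMSO libraries. In CPM these were 1.37, 1.45 and 1.55 in JQ1 libraries and 3.79, 5.34 and 3.86 in DMSO libraries. The JQ1 libraries lay close together and well below the lowest DMSO library. FAS (ENSG00000026103.20) averaged 1.46 ± 0.0865 CPM in JQ1 cells and 4.33 ± 0.874 CPM in DMSO cells (SD, n = 3 each). It fell 2.98-fold, a log2 change of -1.58 ± 0.23 (edgeR adjusted p = 0.00054).

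TNFRSF10A and TNFRSF10B encode the TRAIL receptors that carry death domains. TNFRSF10A had 0 reads in each JQ1 library, and 0, 0 and 1 in the DMSO libraries. TNFRSF10B had 1, 2 and 2 reads in the JQ1 libraries, against 0, 1 and 1 in the DMSO libraries. These counts allow no comparison, and 0 reads over the 3 JQ1 libraries allow a TNFRSF10A level of up to 0.0487 CPM. Such limits cover counting error only. The decoy receptors TNFRSF10C and TNFRSF10D, which bind TRAIL without a working death domain, had 0 and 1 reads over the JQ1 libraries, and 1 and 0 over the DMSO libraries. TNFSF10, the ligand gene, was counted in 557 to 2381 reads per library, and each of these 4 receptor genes in at most 2. AC107959.1, an antisense-class RNA gene 0.798 kb from TNFRSF10B on the same strand, averaged 2.65 ± 1.07 CPM in JQ1 cells and 7.51 ± 0.865 CPM in DMSO cells. It fell by 1.48 ± 0.26 on the log2 scale (edgeR adjusted p = 0.0015).

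FADD encodes the adaptor that joins receptors to caspase-8. It had 24.2, 26.9 and 24.3 CPM in the JQ1 libraries, against 29.1, 27.1 and 28.3 CPM in the DMSO libraries. The groups did not overlap, but only 0.161 CPM lay between the highest JQ1 and the lowest DMSO library. The log2 change of -0.16 ± 0.10 did not pass (edgeR adjusted p = 0.23), and its 95% interval ran from -0.38 to 0.06.

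RIPK1 encodes a death domain kinase that takes part in survival signalling, apoptosis and necroptosis downstream of TNF receptor 1. It had 59.2, 56.7 and 48.3 CPM in the JQ1 libraries, against 51.7, 46.4 and 39.4 CPM in the DMSO libraries. The groups overlapped, while every JQ1 library was above the DMSO library of its own number, by 1.15, 1.22 and 1.22 times. The log2 change of 0.26 ± 0.12 did not pass (edgeR adjusted p = 0.11). With the replicate number as a block it was 0.26 ± 0.07 and passed (edgeR adjusted p = 0.0015).

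CFLAR encodes FLIP, the inhibitor of caspase-8 activation. It had 382, 385 and 230 reads in the JQ1 libraries, against 782, 1131 and 902 reads in the DMSO libraries. The levels were 15.4, 18.1 and 14.8 CPM in JQ1 libraries and 38.5, 44.4 and 34.2 CPM in DMSO libraries. The groups stood far apart, the lowest DMSO library being 16.1 CPM above the highest JQ1 library. CFLAR (ENSG00000003402.19, chromosome 2, 201116104 to 201176687) averaged 16.1 ± 1.72 CPM in JQ1 cells and 39.0 ± 5.14 CPM in DMSO cells (SD, n = 3 each). It fell 2.42-fold, a log2 change of -1.27 ± 0.13 (edgeR adjusted p = 6.6e-05).

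CASP8 and CASP10 encode the initiator caspases that FADD gathers. CASP8 had 66.2, 79.7 and 61.3 CPM in the JQ1 libraries, against 67.3, 71.7 and 56.8 CPM in the DMSO libraries. The groups overlapped, and the log2 change was 0.08 ± 0.12 (edgeR adjusted p = 0.63), with a 95% interval from -0.18 to 0.35. CASP10 had 61.3, 81.7 and 73.6 CPM in the JQ1 libraries, against 52.4, 64.3 and 57.0 CPM in the DMSO libraries. JQ1 replicate 1 lay within the DMSO range and the other JQ1 libraries above it. The CASP10 change of 0.32 ± 0.12 did not pass (edgeR adjusted p = 0.061). It passed with the replicate number as a block (0.31 ± 0.06, edgeR adjusted p = 9e-05), and when JQ1 replicate 1 (0.43, edgeR adjusted p = 0.02) or DMSO replicate 2 (0.40, edgeR adjusted p = 0.042) was left out.

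BID encodes the protein that caspase-8 cuts to engage mitochondria. It had 53.3, 48.0 and 53.5 CPM in the JQ1 libraries, against 76.0, 74.3 and 75.1 CPM in the DMSO libraries. The DMSO libraries were nearly equal and every JQ1 library was lower by at least 20.8 CPM. BID (ENSG00000015475.18, chromosome 22, 17734138 to 17774770) averaged 51.6 ± 3.13 CPM in JQ1 cells and 75.2 ± 0.886 CPM in DMSO cells (SD, n = 3 each). It fell 1.46-fold, a log2 change of -0.54 ± 0.08 (edgeR adjusted p = 0.00072). With the replicate number as a block 4 members were called lower, where the background was 29.6%, and 2 were called higher, where the background was 27.3%.

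**Figure D1:**
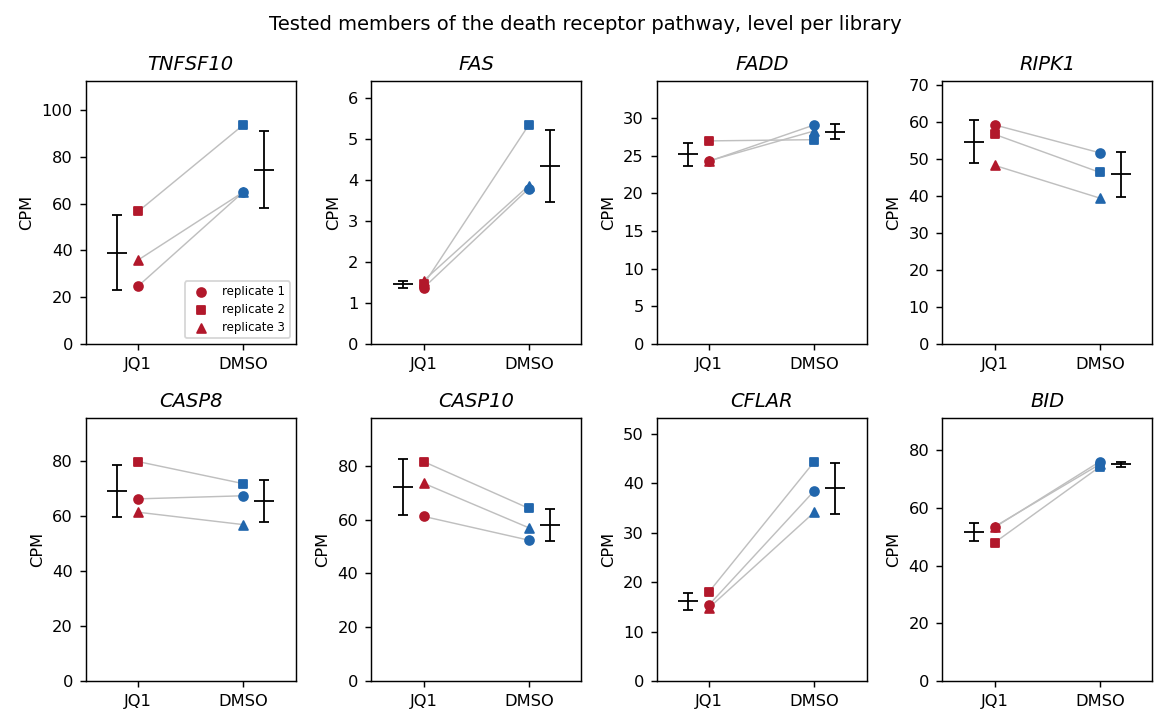
CPM (y axis, from 0, scaled per panel) of the 8 tested members in JQ1 libraries (left) and DMSO libraries (right), with a marker shape per replicate number, grey lines joining equal numbers and black bars for the mean ± SD (n = 3). FAS, CFLAR, BID, TNFSF10 and FADD had every JQ1 library below every DMSO library, while RIPK1, CASP8 and CASP10 overlapped between groups.

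CFLAR, CASP10 and CASP8 lie in a row on the plus strand of chromosome 2, with CASP10 at 201182881 to 201229406 and CASP8 at 201233443 to 201287711. CFLAR ends 6.19 kb before CASP10, and CASP10 ends 4.04 kb before CASP8, so the 3 genes span 172 kb. Within this row the fall was seen for CFLAR, and neither caspase gene was called lower. There were 23.3, 22.7 and 24.2 CFLAR reads per 100 CASP8 reads in the JQ1 libraries, against 57.2, 62.0 and 60.2 in the DMSO libraries. This ratio varied little within a group and was 2.56 times lower in JQ1 libraries. An exact 2-sided permutation test gave p = 0.1, the smallest value that 3 against 3 libraries allow. Set against CASP10, there were 25.2, 22.1 and 20.1 CFLAR reads per 100 CASP10 reads in the JQ1 libraries, against 73.5, 69.1 and 59.9 in the DMSO libraries. These are ratios of reads, not of molecules, and they do not show which gene changed.

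Upstream of CFLAR, NDUFB3, a respiratory chain subunit gene 30.4 kb away, had 41.4 ± 4.49 CPM in JQ1 cells and 41.2 ± 1.44 CPM in DMSO cells (SD, n = 3 each), a log2 change of 0.0042 ± 0.10 (edgeR adjusted p = 0.98). FAM126B, 44.4 kb away, rose by 0.33 ± 0.10 (edgeR adjusted p = 0.023). ALS2CR12, 0.56 kb beyond CASP8 on the other strand, rose by 1.14 ± 0.39 (edgeR adjusted p = 0.042) at levels under 1 CPM in either group. Of the 10 tested genes drawn around it, CFLAR alone was called lower.

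**Figure D2:**
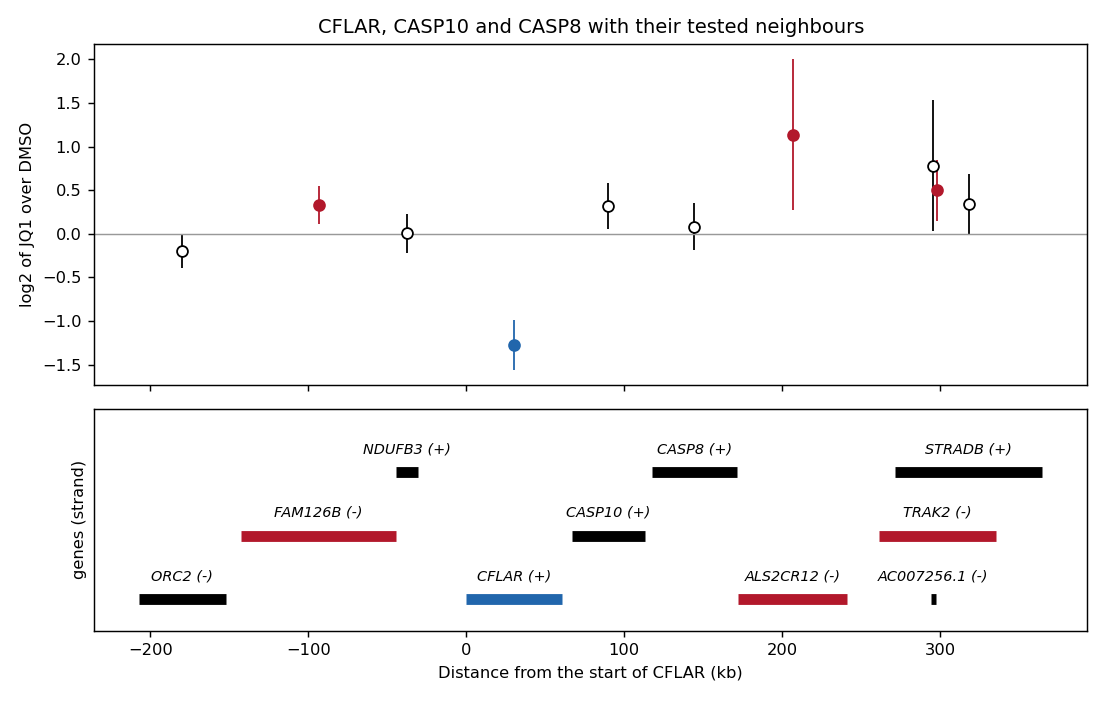
Log2 change of JQ1 over DMSO with its 95% interval (upper panel) and the extent and strand of each tested gene (lower panel) against the distance from the start of CFLAR in kb. Filled points and coloured bars mark genes with adjusted p under 0.05, blue for lower and red for higher. CFLAR at -1.27 is the blue gene, and CASP10 at 0.32 and CASP8 at 0.08 are black.

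Near the other members, STAMBPL1, a deubiquitinase gene 15.4 kb from FAS on the same strand, also fell, to 12.0 ± 1.83 CPM in JQ1 cells against 20.7 ± 1.69 CPM in DMSO cells (log2 change -0.78 ± 0.14, edgeR adjusted p = 0.0017). ACTA2-AS1, 49.8 kb from FAS, had a change of -0.65 ± 0.35 (edgeR adjusted p = 0.18). BPHL, 3.19 kb from RIPK1 on the same strand, rose by 0.88 ± 0.12 (edgeR adjusted p = 0.00047). Beside BID, BCL2L13, a BCL2 family gene 3.28 kb away on the other strand, had a change of 0.19 ± 0.10 (edgeR adjusted p = 0.15, 0.017 with the block), and LINC00528 had -0.24 ± 0.15 (edgeR adjusted p = 0.24). PPFIA1, 63.3 kb from FADD, rose by 0.42 ± 0.09 (edgeR adjusted p = 0.0056). Near TNFRSF10A, CHMP7 rose by 0.41 ± 0.12 (edgeR adjusted p = 0.019), R3HCC1 fell by 0.32 ± 0.10 (edgeR adjusted p = 0.025) and LOXL2 had -0.54 ± 0.41 (edgeR adjusted p = 0.33). RHOBTB2, which overlaps TNFRSF10B on the other strand, had 0.21 ± 0.15 (edgeR adjusted p = 0.3). AL031963.3, antisense to RIPK1, had 0.77 ± 0.31 (edgeR adjusted p = 0.079, 0.043 with the block), and NQO2 had 0.13 ± 0.22 (edgeR adjusted p = 0.69). The neighbours thus moved in either direction. Of the members that fell, FAS had a neighbour called lower among those named, and CFLAR and BID had none.

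Levels were compared between members per kilobase of merged exons (CPM per kb). In JQ1 cells FADD had the highest mean with 13.7 CPM per kb, followed by RIPK1 with 12.9, BID with 11.6, TNFSF10 with 11.3, CASP8 with 9.53 and CASP10 with 9.50. In DMSO cells the order was TNFSF10 with 21.4 CPM per kb, BID with 16.9, FADD with 15.3, RIPK1 with 10.8, CASP8 with 9.01 and CASP10 with 7.62. CFLAR followed with 0.715 CPM per kb in JQ1 cells and 1.73 in DMSO cells, and FAS with 0.343 and 1.02. With this length CFLAR and FAS stood below the other 6 tested members in both groups. In JQ1 cells the library levels of every 2 neighbours in the order of those 6 overlapped with this length. The TNFSF10 libraries there spread from below to above all those of FADD. In DMSO cells those of RIPK1 and CASP8 overlapped, as did those of the 2 caspase genes. Merged exons of CFLAR span 22529 bases, so its level depends on the length used. Per kilobase of the longest coding transcript, a length chosen after seeing the data, CFLAR was still below those 6 members. It had 1.10 CPM per kb in JQ1 cells and 2.66 in DMSO cells. For CFLAR that transcript is 14672 bases, the longest of any member, so this length cannot settle its rank. Shorter CFLAR transcripts were not tried. In CPM without a length, CFLAR was above FADD in DMSO cells (39.0 against 28.1) and below it in JQ1 cells (16.1 against 25.2). Per kilobase of the longest coding transcript, CASP8 had the highest mean in JQ1 cells, 23.6 ± 3.25 CPM per kb, against 12.2 ± 1.73 for CASP10 (SD, n = 3). The JQ1 libraries of BID (20.7 ± 1.25) and TNFSF10 (20.0 ± 8.27) overlapped with those of CASP8. In DMSO cells CASP8 had 22.3 ± 2.61 CPM per kb and CASP10 9.77 ± 1.01, so the 2 caspase genes no longer overlapped in either group.

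Reads from the opposite strand, which the choice of genes and the sense counts do not use, were few. BID had 57, 59 and 25 such reads in the JQ1 libraries, against 34, 47 and 32 in the DMSO libraries, which was 2.87% of its reads on both strands. The groups overlapped, and the log2 change of 0.45 ± 0.26 did not pass (edgeR adjusted p = 0.26). RIPK1 had 16, 6 and 7 opposite-strand reads in the JQ1 libraries, against 8, 11 and 16 in the DMSO libraries (log2 change -0.11 ± 0.42, edgeR adjusted p = 0.9). The other 8 members had at most 13 per library and were not tested. Of the 7018 genes tested on that strand 10.3% were called lower and 7.54% higher.

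The other genes of the pathway were taken from 6 lists by role, 45 genes in all, of which 36 were tested. Of these 5 rose and 10 fell, with a median log2 change of -0.03, where 15.9% of all tested genes were called higher and 20.6% lower. With the replicate number as a block 9 were called higher, against a background of 27.3%, and 11 lower, against 29.6%. The counts of the single lists below are small and have the same backgrounds. The largest change was in MLKL, the pore-forming effector of necroptosis. MLKL had 31, 13 and 22 reads in the JQ1 libraries, against 205, 308 and 342 reads in the DMSO libraries. It fell 10.8-fold, to 1.09 ± 0.427 CPM in JQ1 cells against 11.7 ± 1.47 CPM in DMSO cells (SD, n = 3 each; log2 change -3.44 ± 0.26, edgeR adjusted p = 1.5e-05). RIPK3, the kinase that activates MLKL, had 0 reads in all 6 libraries, which allows up to 0.0487 CPM in JQ1 cells and 0.0416 CPM in DMSO cells. ZBP1, a sensor of the same route, had at most 2 reads per library.

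Of 5 other death ligands 2 were tested and 1 fell. LTA, lymphotoxin alpha, had 16, 19 and 12 reads in the JQ1 libraries, against 99, 96 and 100 reads in the DMSO libraries. It fell by 2.42 ± 0.25 on the log2 scale (edgeR adjusted p = 7.6e-05). TNF had 44.9 ± 5.46 CPM in JQ1 cells and 46.3 ± 9.16 CPM in DMSO cells (SD, n = 3 each; log2 change -0.04 ± 0.14, edgeR adjusted p = 0.84). FASLG, the ligand of FAS, and TNFSF12 had 0 reads in all 6 libraries, and TNFSF15 had 1 read in all. So neither FAS ligand nor the TRAIL receptors had RNA at a level that could be tested.

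Of 6 decoy and other death domain receptors 3 were tested and 2 fell. TNFRSF1A, the main receptor of TNF, fell 1.78-fold to 21.5 ± 2.84 CPM in JQ1 cells, against 38.2 ± 0.284 CPM in DMSO cells (SD, n = 3 each; log2 change -0.83 ± 0.11, edgeR adjusted p = 0.00036). TNFRSF25, death receptor 3, fell by 1.67 ± 0.31 (edgeR adjusted p = 0.0021) and rests on 5 to 11 reads per JQ1 library and 25 to 35 per DMSO library. TNFRSF21, death receptor 6, had -0.27 ± 0.15 (edgeR adjusted p = 0.18).

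In the signalling complex of TNF receptor 1, 13 of 14 genes were tested, of which 1 rose and 3 fell, against 15.9% and 20.6% of all tested genes. TRADD, the death domain adaptor of that receptor, rose by 0.56 ± 0.15 (edgeR adjusted p = 0.016), and missed the threshold when JQ1 replicate 2 (0.42, edgeR adjusted p = 0.062) or DMSO replicate 3 (0.47, edgeR adjusted p = 0.054) was left out. BIRC3, which encodes the ubiquitin ligase cIAP2, fell by 0.77 ± 0.18 (edgeR adjusted p = 0.0072). CYLD, a deubiquitinase, fell by 0.29 ± 0.08 (edgeR adjusted p = 0.02), and missed the threshold when replicate 2 or 3 of JQ1 or replicate 3 of DMSO was left out (edgeR adjusted p from 0.059 to 0.064). The genes of the linear ubiquitin ligase, RNF31, RBCK1 and SHARPIN, named after their values were seen, had log2 changes between -0.02 and 0.04 and were not called. TRAF2, an adaptor of the complex named after its value was seen, was the other gene that fell, at the edge of the threshold (-0.29 ± 0.10, edgeR adjusted p = 0.04997). DESeq2 did not call TRAF2.

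Among 10 modulators of the receptors and of the signalling complex, all tested, 3 rose and 3 fell, against 15.9% and 20.6% of all tested genes. DAXX, a FAS-binding protein that also acts in the nucleus, fell by 0.50 ± 0.08 (edgeR adjusted p = 0.001), and FAIM, an inhibitor of FAS-driven apoptosis, fell 2.04-fold (log2 change -1.03 ± 0.18, edgeR adjusted p = 0.0017). PTPN13, a phosphatase that binds the FAS tail, rose by 0.51 ± 0.10 (edgeR adjusted p = 0.0031). The other calls of this list, named after their values were seen, were a fall of DEDD and rises of PEA15 and CASP8AP2. Of 7 downstream genes 1 rose and 0 fell by edgeR, against 15.9% and 20.6% of all tested genes. DESeq2 called 2 of this list higher and 0 lower, against 2268 and 2741 of the 13975 tested genes. The block called 3 higher and 1 lower, against 27.3% and 29.6%. Before adjustment, 2 higher and 1 lower had p under 0.05 by edgeR, against 2991 and 3458 of the 13975. DIABLO, an antagonist of inhibitor of apoptosis proteins, rose by 0.48 ± 0.16 (edgeR adjusted p = 0.039), and missed the threshold when replicate 1 or 3 of either group was left out (edgeR adjusted p from 0.1 to 0.11), when libraries were scaled by size alone (0.069) and when low counts were not filtered (0.06). XIAP, the caspase inhibitor, had -0.23 ± 0.08 (edgeR adjusted p = 0.053, 0.002 with the block, 0.039 without DMSO replicate 3 and 0.018 with scaling by library size alone).

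**Figure D3:**
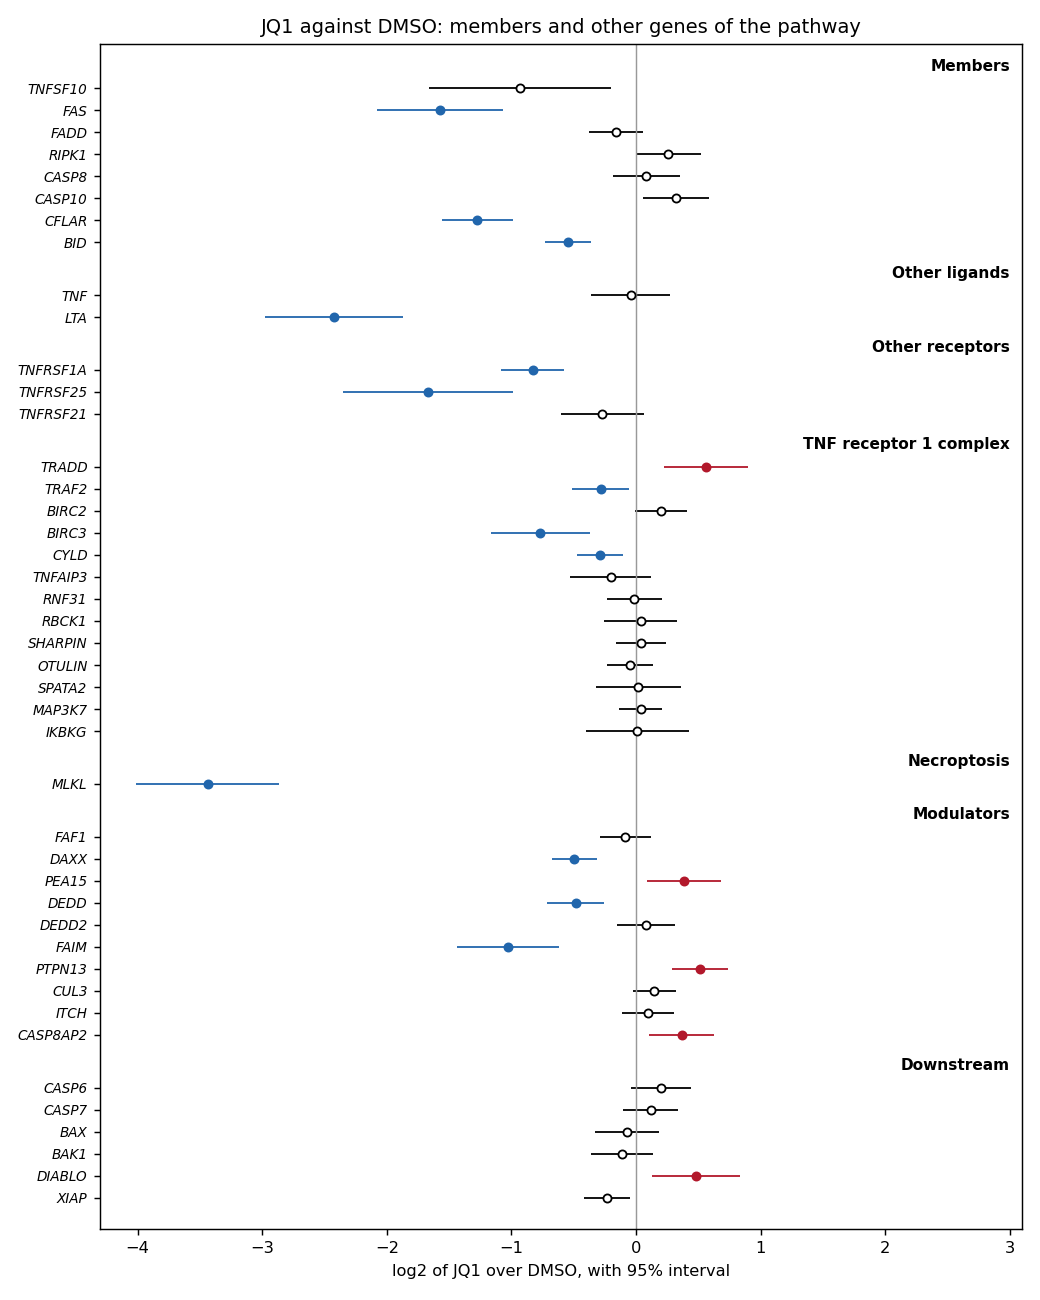
Log2 change of JQ1 over DMSO (x axis) with its 95% interval for the 8 tested members and 35 of the 36 other tested genes of the pathway, grouped by role. Filled blue points passed as lower, filled red points as higher, and open black points did not pass at adjusted p under 0.05. MLKL at -3.44 and LTA at -2.42 lie farthest from 0, and TRADD at 0.56 is the highest point.

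**Figure D4:**
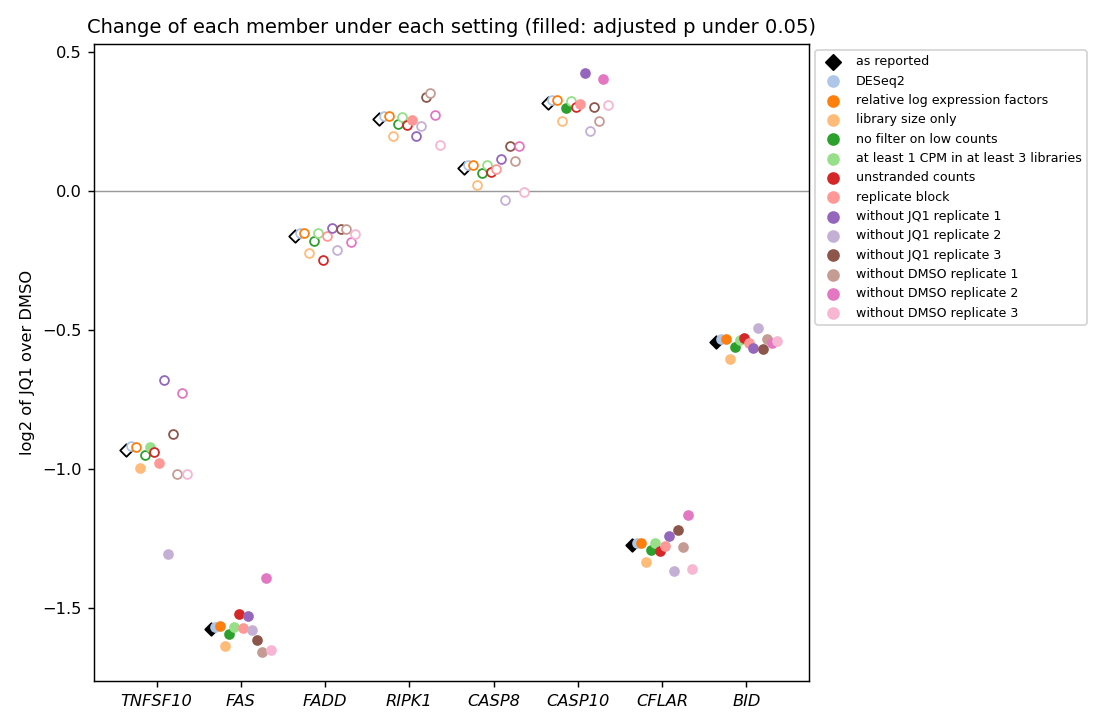
Log2 change of JQ1 over DMSO (y axis) of each tested member under each setting, with the reported value as a diamond and filled symbols for adjusted p under 0.05. FAS stayed between -1.66 and -1.39, CFLAR between -1.37 and -1.17 and BID between -0.61 and -0.49 with every symbol filled. TNFSF10, RIPK1 and CASP10 had filled and open symbols.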

How the data were processed

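The deposited files hold raw read counts per gene in 6 libraries, not normalised by the authors, once unstranded and once per strand, in the layout of STAR gene counts. Per the submitters' processing notes the build was GRCh38; which aligner version and annotation release were used is not given in the sources used here. Reverse-strand counts were used, since they held 20.9 to 22.6 times those of the other strand, and reads that map to several places (14.1% to 15.7%) or genes are not in them. Of 58096 identifiers 57447 matched GENCODE release 29; positions are printed only where versions matched.

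Genes passing filterByExpr (minimum count 10, minimum total 15; 13975) were scaled by TMM and compared by the quasi-likelihood F test of edgeR 4.0.16 (R 4.3.3; glmQLFit with robust estimation, then glmQLFTest; group as the only term), and p-values were adjusted by Benjamini-Hochberg over all of them. The SE is the log2 change over the square root of F, and 95% intervals use the t distribution of the fit. The procedure was also run on simulated data in which same-numbered libraries did not deviate together, so that run does not cover such pairing.

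Same-numbered libraries deviated together across genes (correlations 0.41, 0.53 and 0.46), so the replicate number entered an alternative fit as a block. The labels do not say what the number marks. Within each group, every pair of libraries differed by more than sampling noise (chi-square test). The members and lists were chosen with earlier results of these data known. Named were all members, the 3 genes with the smallest p of each other list, and up to 3 tested genes within 100 kb of each member; exceptions are stated where they occur, and 1 gene of the downstream list is counted but not reported here. Other alternatives were DESeq2 1.42.0, other scalings, filters and strand counts, and each library left out in turn.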

Additional observations from a re-analysis of the deposited data

Results flagged for a closer look

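Reads opposite to 2 other genes of the pathway, DEDD and TRAF2, were called higher under JQ1, where 7.54% of the 7018 genes tested on that strand were. The sense-strand comparisons do not use these counts. TNFAIP3, RNF31, SHARPIN, IKBKG, PEA15 and CASP6, named after their values were seen, were also tested on that strand and not called. The 2 calls were not repeated under other settings. Opposite to DEDD there were 123, 130 and 61 reads in the JQ1 libraries, against 63, 79 and 79 in the DMSO libraries (0.65 ± 0.20 on the log2 scale, edgeR adjusted p = 0.023). Opposite to TRAF2 there were 17, 13 and 13 reads in the JQ1 libraries, against 7, 4 and 9 in the DMSO libraries (1.26 ± 0.43 on the log2 scale, edgeR adjusted p = 0.043). The sense-strand counts of DEDD and TRAF2 were called lower, those of TRAF2 at the edge of the threshold (edgeR adjusted p = 0.04997) and not by DESeq2. Whether the opposite-strand reads belong to other genes was not tested.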

How the results depend on the processing

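FAS, CFLAR and BID were called lower under all 7 other settings and in all 6 fits without a library. The count of members called lower was 3 or 4 throughout, while the count over all genes ran from 2444 to 4133. Members called higher numbered 0 by edgeR, 1 with no filter on low counts, 2 with the replicate block and 0 to 1 without a library. Of the other pathway genes 5 were called higher, against 2 with scaling by size alone, 9 with the replicate block and 2 to 4 without a library. Over all genes 2227 were called higher, against 1697 with scaling by size alone and 2294 with no filter. The replicate block called 3813 higher, and the fits without a library 1707 to 1901. Besides the calls given above for TNFSF10, RIPK1, CASP10, XIAP, BCL2L13, AL031963.3 and CD79A, the block changed no call of a gene whose sense-strand change is printed. Values near 0 changed sign in fits without a library: CASP8 ran from -0.033 to 0.16, TNF from -0.14 to 0.13 and RIPK1 on the opposite strand from -0.20 to 0.15. The cause was not tested. TNFSF10 was also called with scaling by size alone (edgeR adjusted p = 0.025), as was XIAP (0.018), and with a filter of 1 CPM in 3 libraries (-0.92, edgeR adjusted p = 0.04), but not with no filter (edgeR adjusted p = 0.23), and CASP10 with no filter (0.30, edgeR adjusted p = 0.028). FAS rests on 24 to 34 reads per JQ1 library.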
